A study of Rattus norvegicus with 8 samples.

Results

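The Ifitm family was described here through its 3 members Ifitm1, Ifitm2 and Ifitm3 (ENSRNOG00000004273, ENSRNOG00000014936 and ENSRNOG00000015078), which were taken by symbol from the 32623 genes of the count tables. The members were chosen by measured values, because Ifitm1 was higher after injury while classical interferon-response genes were lower. The contrast of injured with sham cord is therefore given below as a description, without a test. Droplet-based single-cell RNA sequencing was applied to the cord of female Wistar rats aged 8 weeks, 7 days after the operation. Injury was a contusion at T9 by a falling weight of 10 g, from 25 mm for moderate, 50 mm for severe and a lower height for mild injury, while sham rats had laminectomy alone. Each group had 2 libraries, and nothing in the labels says whether a library came from 1 animal or several, so p-values measure the spread between libraries only.

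Ifitm proteins are small membrane proteins of endosomes and the cell surface that hinder the fusion of enveloped viruses with the cell. They are classically induced by interferons, through receptors of the Ifnar and Ifngr type and Jak kinases. Many cells also carry them without an interferon signal, and Ifitm1 is known from germ cells, immune cells and stromal cells. In the spinal cord, resident microglia, border macrophages, vessels and meningeal fibroblasts meet large numbers of blood-derived macrophages after an injury.

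In the RefSeq annotation the 3 members lie next to each other on chromosome 1 in the order Ifitm2, Ifitm1, Ifitm3, between Ifitm5 and Ifitm6. The regions around the transcription starts of Ifitm2 and Ifitm3 are shown because interferon-response elements are read there. The promoter set used held no entry for Ifitm1, so its region was not searched. Each runs from 250 bases before the start to 50 bases after it (RefSeq, GRCr8), and capitals mark the letters GAAANNGAAA, the core of an interferon-stimulated response element, searched on both strands.

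Ifitm2 (chr1:205482299-205482598, minus strand): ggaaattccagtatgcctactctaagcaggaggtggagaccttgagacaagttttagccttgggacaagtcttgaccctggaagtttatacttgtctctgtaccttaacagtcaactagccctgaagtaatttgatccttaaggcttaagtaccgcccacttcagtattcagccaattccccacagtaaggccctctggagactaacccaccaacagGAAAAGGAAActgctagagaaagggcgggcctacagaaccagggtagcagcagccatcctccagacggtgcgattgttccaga

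Ifitm3 (chr1:205541709-205542008, minus strand): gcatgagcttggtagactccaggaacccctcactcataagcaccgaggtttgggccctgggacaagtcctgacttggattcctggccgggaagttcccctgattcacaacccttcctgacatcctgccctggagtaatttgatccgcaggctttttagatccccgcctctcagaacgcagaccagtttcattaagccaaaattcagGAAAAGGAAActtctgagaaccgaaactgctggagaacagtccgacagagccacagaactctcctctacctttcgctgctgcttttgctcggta

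Both held the same 10 letters GAAAAGGAAA, which began 33 bases before the start of Ifitm2 and 44 bases before that of Ifitm3. The pattern GAAANNGAAA was present in 3.92% of the 33469 promoters of the table, and in 12 of the 19 classical type I interferon-response genes with an entry there. The pattern TTCNNNGAA, the core of a gamma-interferon activated site, lay 33 bases before the start of Ifitm3 as TTCTGAGAA and was held by 8.87% of all promoters. Ifitm2 had no match to it in this window. The windows of Ifitm2 and Ifitm3 were identical at 183 of 276 aligned bases (66.3%). That of Ifitm7, on chromosome 11, was identical to Ifitm3 at 222 of 243 aligned bases (91.4%). The newer annotation also holds family pseudogenes, and whether reads were split between near-copies was not tested. Ifitm7 held both patterns too, as GAAAAGGAAA 98 bases and as TTCTGAGAA 87 bases before its start. The matches are descriptions of letters, and the names Ifitm5, Ifitm6 and Ifitm10 had no match to either pattern in their windows.

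Of 68658 deposited barcodes 55455 passed quality control, and 48497 of these (87.5%) were assigned to a cell type by their own marker genes, from lists of 8 markers with at least 3 detected. A total of 10.6% of the assigned cells had exactly 3 markers, and the 6958 unassigned cells had a median of 1455 UMIs (unique molecular identifiers, which count RNA molecules). Over all deposited barcodes the libraries held 31.5M to 131M UMIs each, and 2336 to 10016 cells of a library were kept. Both sham libraries stood apart from the rest and from each other. In sham replicate 1, 50.6% of the kept cells were neutrophils and 708 of 9190 were macrophages/microglia, while sham replicate 2 had 0.0428% neutrophils and 89.9% macrophages/microglia. Of the cells of the cord itself, 4366 oligodendrocytes and 3427 of their precursors passed the gate, but only 143 astrocytes and 6 neurons. The gate is strict for some types, since clustering named 893 cells astrocytes and 808 dendritic cells. Any pair of libraries shared 0.163% to 0.452% of the smaller library's barcodes, and 555 of 68095 distinct barcodes occurred in more than 1 library. Levels are given as CPM, the count of a gene scaled to a fixed total per type and library, for which the UMIs of all cells of 1 type were added up within each library, for libraries with at least 20 such cells. The assay counts the 3′ ends of molecules, so CPM of different genes are molecule counts and were not divided by length.

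The 3 members took different shares of the family's UMIs in different cell types. On average over libraries, Ifitm1 held most of them in dendritic cells, T cells/NK cells, neutrophils and blood-derived-type macrophages. Ifitm3 held most in fibroblasts, vessel cells and astrocytes, where fibroblasts and mural cells also had Ifitm1 and Ifitm2. Ifitm1 made up 81.1% ± 2.07 (SD, n = 3 libraries) of the UMIs of the 3 genes in dendritic cells, 81.5% ± 4.38 (n = 7) in T cells/NK cells and 81.1% ± 8.01 (n = 7) in neutrophils. In blood-derived-type macrophages its share was 66.4% ± 14.0 (n = 8) and varied more, from 34.2% to 76.3%. Ifitm3 made up 52.4% ± 4.56 (n = 7) in fibroblasts, 66.6% ± 8.53 (n = 4) in endothelial cells and 87.3% ± 2.13 (n = 3) in astrocytes. Ifitm2 held 69.9% ± 10.2 (n = 8) of the family's UMIs in microglia-type cells, more than in any other type of the plot of the make-up.

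**Figure D1:**
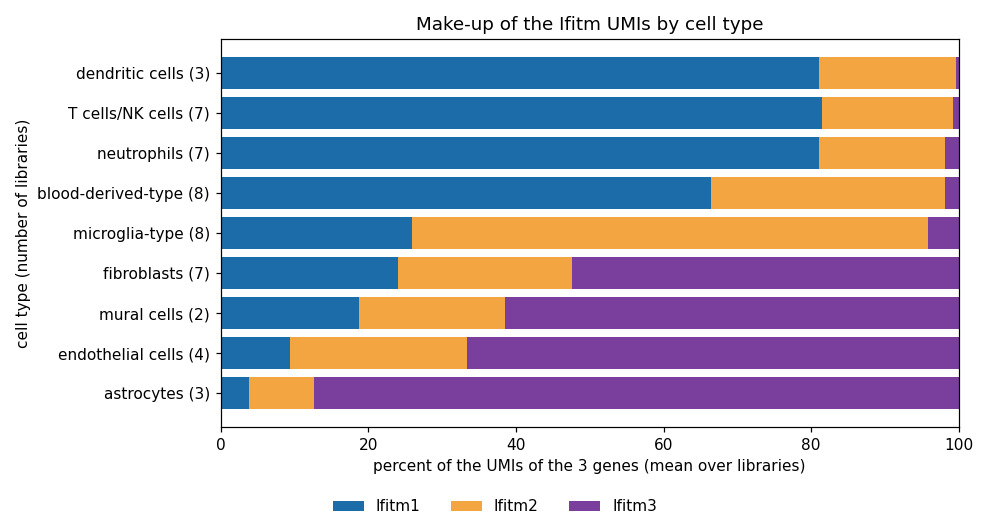
Percent of the UMIs of Ifitm1, Ifitm2 and Ifitm3 together that each gene held, by cell type (horizontal bars, mean over libraries with at least 20 cells, whose number is in brackets). Ifitm1 took 81.1% to 81.5% in dendritic cells, T cells/NK cells and neutrophils, and Ifitm3 87.3% in astrocytes.

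Summed over all libraries, macrophages/microglia gave 85.3% of the Ifitm1 UMIs and 81.0% of the Ifitm2 UMIs, while fibroblasts gave 71.7% of the Ifitm3 UMIs. In the injured libraries the share of Ifitm1 UMIs from macrophages/microglia ranged from 61.3% to 95.2%. In sham replicate 1, 61.9% of the Ifitm1 UMIs came from neutrophils and 24.1% from fibroblasts. In sham replicate 2, 91.5% of the Ifitm1 UMIs came from macrophages/microglia, inside the injured range. Fibroblasts gave 2.82% of the Ifitm3 UMIs of that library, against 60.5% to 87.2% in the injured libraries. A level over all cells of a library therefore mixed different cells in different libraries, for Ifitm1 mainly in sham replicate 1.

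Ifitm1 was highest in dendritic cells, the antigen-presenting cells, at 10448, 9300 and 10043 CPM in mild replicate 1, severe replicate 1 and severe replicate 2. These were the only libraries with 20 dendritic cells or more, and the lowest of the 3 values was above every value of Ifitm1 in any other type. Ifitm2 was also high in these cells, at 2618, 1817 and 2415 CPM, and Ifitm3 lay at 20.1, 24.5 and 106 CPM. The gate held 137 dendritic cells, and no test between types was made for them.

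Ifitm1 lay at 511 to 2618 CPM in T cells/NK cells, with a median of 1714 over 7 libraries. In neutrophils it lay at 942 to 1827 CPM with a median of 1249, in fibroblasts at 634 to 1875 CPM with a median of 835, and in macrophages/microglia at 157 to 2483 CPM with a median of 1749 over 8 libraries. The ranges of these 4 types overlapped. Within libraries, none of their 6 pairs passed for Ifitm1 in exact two-sided sign-flip permutation tests of log2(CPM + 1) over libraries. The mean differences ranged from -0.22 to 0.61 on the log2 scale (adjusted p from 0.170 to 0.953, Benjamini-Hochberg over 63 comparisons). Macrophages/microglia were above fibroblasts in 6 of 7 libraries (0.45 ± 1.82, SD). The exception was sham replicate 1, with 157 against 1875 CPM, so a test that does not pass does not show equal levels. The 7 types with at least 4 libraries gave 21 pairs for 3 members, and 26 of the 63 comparisons passed an adjusted p of 0.05. With 7 or 8 libraries the smallest p the test allows is 0.0156 or 0.00781, and the passing comparisons had an adjusted p of 0.0379. Comparisons with endothelial cells had 3 or 4 libraries and could not pass, since the smallest p is then 0.250 or 0.125.

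Oligodendrocytes, which make myelin, and their precursors had little Ifitm1. It lay at 5.30 to 69.5 CPM and 3.07 to 73.5 CPM there, below macrophages/microglia in 8 of 8 libraries. The mean differences were 4.86 ± 1.55 (SD, n = 8) and 5.26 ± 1.66 on the log2 scale (adjusted p = 0.0379 for each, exact permutation test). Erythroid cells, which should lack the gene, had 9.43, 0 and 29.3 CPM in sham replicate 1, severe replicate 1 and severe replicate 2, where oligodendrocytes had 58.3, 26.2 and 23.95 CPM. The part of free RNA in these levels was not tested. In endothelial cells, the lining of vessels, Ifitm1 was 63.6 and 73.0 CPM in the sham libraries and 359 and 584 CPM in the severe libraries. B cells were an immune type with little Ifitm1, at 25.2, 13.6 and 182 CPM in sham replicate 1, severe replicate 1 and severe replicate 2.

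Ifitm2 was 145 to 556 CPM in T cells/NK cells, lower than in the macrophages/microglia of the same library in 7 of 7 libraries, by 1.01 ± 0.50 on the log2 scale (adjusted p = 0.0379, exact permutation test). In neutrophils it was 124 to 419 CPM. Fibroblasts had 623 to 2020 CPM of Ifitm2, above neutrophils in 7 of 7 libraries by 1.94 ± 0.86 on the log2 scale and above T cells/NK cells in 7 of 7 by 1.63 ± 0.99 (adjusted p = 0.0379 for each, exact permutation test). Fibroblasts and macrophages/microglia differed by less than their spread, with fibroblasts higher in 5 of 7 libraries (mean difference of macrophages/microglia from fibroblasts -0.62 ± 0.98, adjusted p = 0.192, exact permutation test). Mural cells, the pericytes and muscle cells of vessels, had 1731 and 1715 CPM in the sham libraries, the only ones with 20 such cells. Endothelial cells had 456 to 869 CPM of Ifitm2 over 4 libraries.

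Ifitm3 separated the types most sharply. Fibroblasts had 4657 CPM in sham replicate 1 and 1363 to 2475 CPM in the 6 injured libraries, and mural cells had 6019 and 4740 CPM in the sham libraries. Endothelial cells had 1194 to 2968 CPM and astrocytes 1125 to 2238 CPM. Macrophages/microglia had 7.11 to 63.7 CPM, neutrophils 0 to 94.9 CPM and T cells/NK cells 0 to 30.1 CPM. Each of these 3 immune types lay below the fibroblasts of the same library in 7 of 7 libraries, with differences of -7.09 ± 0.65, -7.14 ± 1.97 and -8.22 ± 1.29 on the log2 scale (adjusted p = 0.0379 for each, exact permutation test).

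The immune values of Ifitm3 moved with 1 library. Sham replicate 1 gave the highest Ifitm3 value in macrophages/microglia (63.7 CPM), neutrophils (94.9 CPM), T cells/NK cells (30.1 CPM), B cells (52.4 CPM), oligodendrocytes (70.9 CPM) and their precursors (37.6 CPM). Its erythroid cells had 18.9 CPM against 5.93 and 2.34 CPM in the severe libraries. Over all its cells Ifitm3 reached 630 CPM, against 45.1 to 501 CPM in the other 7 libraries. The part of free RNA in the low immune levels of Ifitm3 was not tested.

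**Figure D2:**
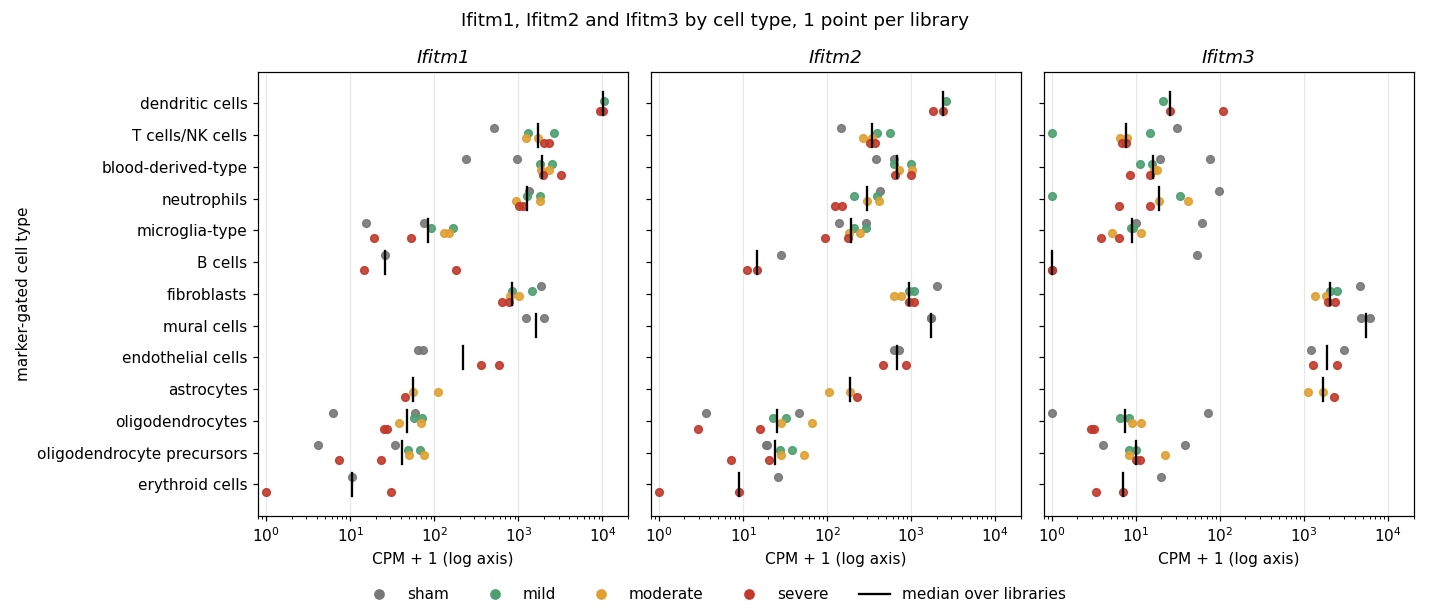
CPM + 1 of Ifitm1, Ifitm2 and Ifitm3 on a log axis (horizontal) by gated cell type (vertical), with 1 point per library coloured by injury group and a black bar at the median over libraries. Dendritic cells lead for Ifitm1 at 9300 to 10448 CPM, and fibroblasts, mural cells, endothelial cells and astrocytes stand at 1125 to 6019 CPM for Ifitm3 while immune cells stay at 106 CPM or below.

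The share of cells with a UMI was compared after each cell had been thinned to 1000 UMIs. Ifitm1 was seen in 131 of 137 dendritic cells (95.6%, 95% Wilson interval 90.8% to 98.0%), 53.1% of neutrophils, 50.6% of T cells/NK cells, 49.4% of fibroblasts and 43.2% of macrophages/microglia. It was seen in 3.78% of B cells, and in 1.87% of the 481 erythroid cells (interval 0.987% to 3.52%). Ifitm3 was seen in 79.4% of fibroblasts, 75.5% of endothelial cells and 60.4% of astrocytes, against 1.13% of macrophages/microglia and 1.36% of T cells/NK cells. In erythroid cells thinned in this way it was seen in 0 of 481, and 3 counts would be a share of 0.624% at that depth. The shares before thinning were 70.5% for Ifitm1 and 7.51% for Ifitm3 in macrophages/microglia and 18.1% and 3.33% in erythroid cells. Intervals and limits cover counting error only, and thinning left out 850 macrophages/microglia, 1779 neutrophils and 29 fibroblasts with fewer UMIs. Median depths before thinning were 10672 UMIs in macrophages/microglia, 14922 in fibroblasts and 9189 in erythroid cells.

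Within macrophages/microglia, Ifitm1 differed between cells with microglial and with blood-type markers. The gate was split by 8 microglia markers such as P2ry12 and Tmem119 and 6 blood-derived macrophage markers such as Fn1 and Vcan. Microglia-type cells had more of the former and at least 2, blood-derived-type cells more of the latter and at least 2. Some of the blood-derived markers, such as Gpnmb and Lyz2, also come on in activated microglia, so the sub-gates are named by markers and not by origin. Ifitm1 was 74.0 and 14.4 CPM in the microglia-type cells of sham replicates 1 and 2, 90.3 and 166 CPM in the mild, 128 and 149 CPM in the moderate and 18.3 and 51.8 CPM in the severe replicates. In blood-derived-type cells it was 238 and 958 CPM in the sham, 1824 and 2533 CPM in the mild, 2280 and 1855 CPM in the moderate and 1966 and 3205 CPM in the severe replicates. The lowest value of the blood-derived type was above the highest of the microglia type.

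Ifitm1 was lower in microglia-type than in blood-derived-type cells in 8 of 8 libraries, by 4.53 ± 1.61 (SD) on the log2 scale (adjusted p = 0.00781, exact permutation test, the smallest it can give with 8 libraries). Ifitm2 was lower in 8 of 8 by 1.90 ± 0.76 and Ifitm3 in 8 of 8 by 0.89 ± 0.51 (adjusted p = 0.00781 for each). Ifitm2 was 94.3 to 289 CPM in microglia-type and 382 to 1031 CPM in blood-derived-type cells, while Ifitm3 was at most 75.5 CPM in either. Ifitm3 rested on few counts in microglia-type cells, with 5 UMIs in moderate replicate 2 and 2 in severe replicate 1. In severe replicates 1 and 2 it was 2.82 and 5.21 CPM there, against 5.93 and 2.34 CPM in erythroid cells. The part of free RNA in the Ifitm3 difference was not tested. After thinning, 5.45% of microglia-type cells and 52.4% of blood-derived-type cells had an Ifitm1 UMI. The median depth was 11645 UMIs in the former and 10737 in the latter. With stricter sub-gates only 2 libraries kept 20 cells of both, sham replicate 2 and moderate replicate 1, and the difference of Ifitm1 was -6.97 with no possible pass.

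After injury Ifitm1 was higher in macrophages/microglia at each degree. It was 157 and 168 CPM in sham replicates 1 and 2, 1614 and 2116 CPM in the mild, 1944 and 1712 CPM in the moderate and 1786 and 2483 CPM in the severe replicates. All 6 injured libraries lay above both sham libraries. The fitted log2 fold changes against sham were 3.59 ± 0.35 (SE), 3.48 ± 0.34 and 4.20 ± 0.36 for mild, moderate and severe injury. Ifitm2 was 326 and 224 CPM in the sham libraries and 579 to 900 CPM in the injured ones, also without overlap, with log2 fold changes of 1.49 ± 0.33, 1.55 ± 0.33 and 1.85 ± 0.33. Of the 13715 genes tested in this cell type, 5.82%, 2.35% and 8.11% were called in these 3 contrasts by edgeR's quasi-likelihood test at an adjusted p of 0.05. An unadjusted p under 0.05 was reached there by 4004, 3192 and 3975 genes, and the share of all genes without overlap is not given. The 3 contrasts share the sham libraries. They chose the members, so nothing is read from their place among these genes.

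Ifitm3 was 63.7 and 10.8 CPM in the sham libraries and 7.11 to 16.0 CPM in the injured ones. Its log2 fold changes of -1.46, -1.17 and -1.30 rested on sham replicate 1, and without that library they were 0.059, 0.33 and 0.23. Scaling by library size alone moved the median of all genes in severe against sham from -0.10 to -0.58, and the fold changes there to 3.71 for Ifitm1 and 1.34 for Ifitm2.

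The make-up of macrophages/microglia moved with injury too. Microglia-type cells were 106 of 708 and 1300 of 2101 cells (61.9%) of the gate in the sham libraries and 2.10% to 9.04% in the injured ones, and blood-derived-type cells were 48.0% and 17.4% against 73.1% to 92.1%. Within the blood-derived type, Ifitm1 had all 6 injured libraries above both sham libraries, which lay far apart at 238 and 958 CPM. The log2 fold changes were 1.87 ± 0.64, 1.72 ± 0.64 and 2.56 ± 0.66 (SE) for mild, moderate and severe injury. In these contrasts edgeR called 2.40%, 0.184% and 5.21% of the 13600 genes tested in this sub-gate, and the values of Ifitm1 are descriptions. The share of all genes with such a separation is not given. Ifitm2 was 382 and 620 CPM in the sham and 629 to 1031 CPM in the injured blood-derived-type cells. Within the microglia type the ranges of sham and injured libraries overlapped for both genes. There the log2 fold changes of Ifitm1 were 1.65 ± 0.62, 1.72 ± 0.62 and 0.26 ± 0.62, and those of Ifitm2 0.20 ± 0.38, -0.05 ± 0.38 and -0.30 ± 0.39. The part of the changed make-up in the whole-gate value was not tested.

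**Figure D3:**
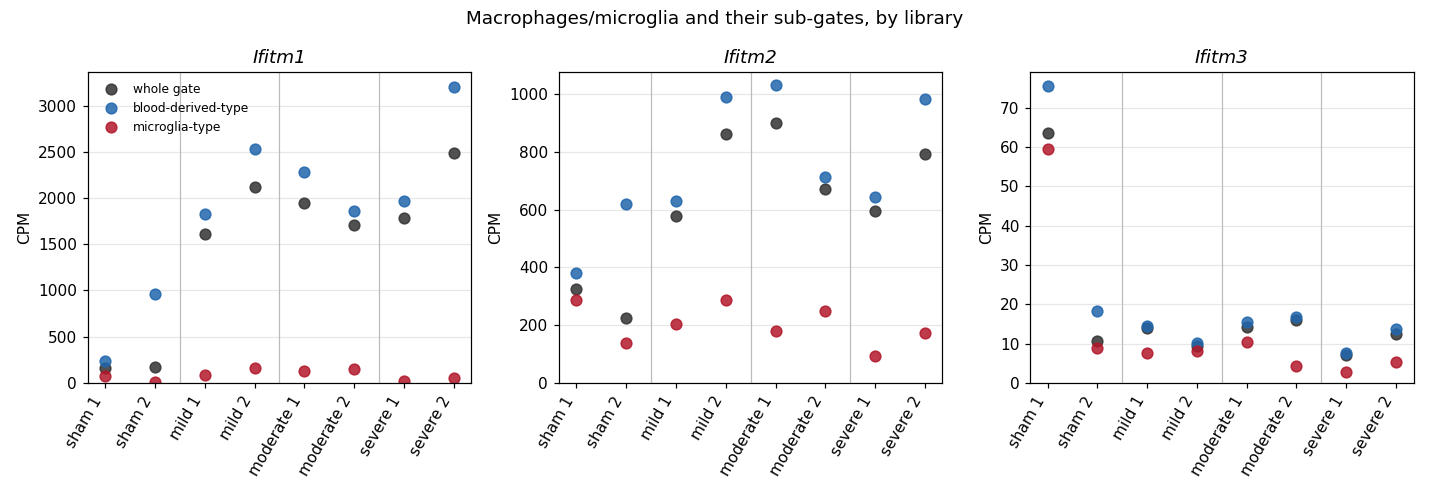
CPM (vertical) of Ifitm1, Ifitm2 and Ifitm3 in each of the 8 libraries (horizontal) for all macrophages/microglia (black) and their blood-derived-type (blue) and microglia-type (red) cells. Ifitm1 of the blood-derived type lies at 238 and 958 CPM in the sham libraries and at 1824 to 3205 CPM after injury, while microglia-type cells stay at 166 CPM or below.

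Oligodendrocytes and their precursors had at least 20 cells in both sham libraries. In precursors Ifitm1 was 33.2 and 3.07 CPM in sham replicates 1 and 2 and 6.24 to 73.5 CPM after injury, with overlap. The log2 fold changes there were 1.85 ± 0.68 (SE), 1.94 ± 0.68 and 0.36 ± 0.74 for mild, moderate and severe injury. In oligodendrocytes Ifitm3 was 70.9 and 0 CPM in sham and 1.87 to 10.5 CPM after injury. Neutrophils, T cells/NK cells and fibroblasts could be set against sham replicate 1 only, and the remaining types had few cells. In T cells/NK cells Ifitm1 was 511 CPM in sham replicate 1 and 1231 to 2618 CPM in the 6 injured libraries. In fibroblasts Ifitm1 was 1875 CPM in sham replicate 1 and 634 to 1436 CPM after injury. Ifitm2 was 2020 CPM there and 623 to 1078 CPM after injury, and Ifitm3 4657 CPM and 1363 to 2475 CPM. In neutrophils Ifitm1 was 1330.5 CPM in sham replicate 1, inside the injured range of 942 to 1827 CPM. A comparison with 1 sham library has no spread on the sham side.

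Between the degrees of injury no member was called in macrophages/microglia. The group means of Ifitm1 were 1865 ± 355 (SD, n = 2), 1828 ± 164 and 2135 ± 493 CPM in mild, moderate and severe cord, and the SDs overlapped. The log2 fold changes of Ifitm1 were -0.10 ± 0.31 (SE) for moderate against mild, 0.71 ± 0.31 for severe against moderate and 0.61 ± 0.31 for severe against mild (edgeR adjusted p = 0.910, 0.214 and 0.312). Those of Ifitm2 ranged from 0.06 to 0.36 and those of Ifitm3 from -0.13 to 0.29. In these contrasts 0%, 1.44% and 2.13% of the 13715 genes were called. In moderate against mild the 0 calls of edgeR stood beside 1743 genes at an unadjusted p under 0.05 and 242 calls of DESeq2. Under all alternatives the adjusted p of Ifitm1 for severe against moderate stayed between 0.117 and 0.597. In the sub-gates Ifitm1 had opposite signs there without a call. It was 0.84 ± 0.63 (SE) in blood-derived-type and -1.46 ± 0.62 in microglia-type cells (edgeR adjusted p = 0.412 and 0.255). These contrasts called 3.47% and 1.03% of genes, and the difference between the sub-gates was not tested.

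In fibroblasts, which build scar and meninges, Ifitm2 was higher in severe than in moderate injury. Ifitm2 was 745 and 623 CPM in the moderate and 942 and 1062 CPM in the severe replicates, and the mild replicates had 1078 and 928 CPM. The log2 fold change for severe against moderate was 0.97 ± 0.22 (SE, edgeR adjusted p = 0.0449), in a contrast that called 7.43% of 11588 genes. Ifitm3 had 1798 and 1363 CPM in the moderate and 1909 and 2312 CPM in the severe replicates (0.83 ± 0.25, adjusted p = 0.0772), and Ifitm1 differed by 0.08 ± 0.29. Severe against mild called 1.35% of genes and moderate against mild 0%, with no member among them, while DESeq2 called 186 genes and 2055 genes had an unadjusted p under 0.05 in moderate against mild. The call of Ifitm2 was lost with the replicate number as a block (adjusted p = 0.0543), with library-size scaling (0.55, adjusted p = 0.0966, where the median of all genes was -0.45) and without any one of the 6 injured libraries (adjusted p from 0.0646 to 0.216). DESeq2 called both Ifitm2 and Ifitm3 (adjusted p = 0.0020 and 0.0252).

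No member was called in the remaining types. In neutrophils the 3 contrasts moderate against mild, severe against moderate and severe against mild called 0.482%, 1.33% and 5.42% of genes. They called 0.251%, 1.56% and 2.86% in T cells/NK cells, 1.07%, 9.61% and 5.12% in oligodendrocyte precursors, and 0.239%, 10.7% and 2.44% in oligodendrocytes. The nearest value was Ifitm1 in oligodendrocyte precursors, with a log2 fold change of -1.58 ± 0.51 for severe against moderate (edgeR adjusted p = 0.0669), which passed without sham replicate 1 or 2 (adjusted p = 0.0174 and 0.0176), with only the 2 groups (0.0330), with library-size scaling (0.0338) and without a filter (9.1e-05). Severe against mild passed there in 4 of these settings, all but library-size scaling. In oligodendrocytes, Ifitm2 passed for severe against moderate with types from clusters (0.0421) and Ifitm3 without sham replicate 2 (0.0418). Further calls in oligodendrocytes came without a filter on low counts and, for Ifitm1 in severe against mild, with only the 2 groups (0.0487). In oligodendrocyte precursors Ifitm2 also passed for severe against moderate in 2 settings. These were library-size scaling (-1.42, edgeR adjusted p = 0.0439) and no filter (-1.05, edgeR adjusted p = 0.0162). The levels of Ifitm1 in oligodendrocyte precursors were 73.5 and 49.1 CPM in the moderate and 6.24 and 21.9 CPM in the severe replicates. The value of severe replicate 1 rested on 8 UMIs, and erythroid cells of the severe replicates had 0 and 29.3 CPM. The part of free RNA in these low levels was not tested.

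The interferon-response genes of the same cells differed from Ifitm1 in direction. The list of classical type I interferon-response genes, made with earlier results of these data known, had 29 genes tested in macrophages/microglia, and 26, 28 and 25 of them had a fold change below 0 in mild, moderate and severe injury. Their median log2 fold changes were -1.52, -1.46 and -1.02, beside medians of all genes of -0.01, 0.01 and -0.10. A total of 9, 4 and 3 genes were called lower and 0, 0 and 2 higher, the latter Oasl and Usp18. The direction of this list was part of the choice of the members, so these counts are descriptions too, beside the 5.82%, 2.35% and 8.11% of all genes called. Ifit1, which had 0 UMIs in both mild libraries and 124 in the sham libraries, had a bound of -7.41 from 3 counts over the group, which left the median at -1.52. Within blood-derived-type cells the list had medians of -1.75, -1.46 and -1.28.

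Of the 3 most abundant genes of this list, Isg15, a ubiquitin-like protein, was 86.1 and 85.5 CPM in the sham libraries and 8.87 to 31.0 CPM in the injured ones. Bst2, the virus-tethering protein tetherin, was 401 and 265 CPM against 23.8 to 166 CPM. Both had no overlap between sham and injured libraries, and the share of all genes without such overlap is not given. Ifi27, a mitochondrial and nuclear interferon-induced protein, was 788 and 531 CPM against 333 to 642 CPM, with overlap. In moderate against mild, severe against moderate and severe against mild, 0, 1 and 2 genes of the list were called, beside 0%, 1.44% and 2.13% of all genes. Oasl, of the oligoadenylate synthetase-like family, was 10.8 and 16.0 CPM in the moderate, 15.8 and 9.99 CPM in the mild and 51.0 and 111 CPM in the severe replicates (adjusted p = 0.0176 and 0.0171 for severe against moderate and against mild). Ifit1 was called for severe against mild at 0.41 CPM or below in every injured library.

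Interferon-gamma-type genes were mixed. Of 15 tested, 11, 10 and 7 had a fold change below 0 in mild, moderate and severe injury, with medians of -0.89, -0.21 and 0.21. B2m, the light chain of MHC class I, was called lower in mild injury (edgeR), beside 5.82% of all genes called. It was 6617 and 5716 CPM in the sham libraries and 2588 to 3862 CPM in the injured ones. The other abundant genes of this list overlapped between sham and injured libraries. Psmb9, a subunit of the immunoproteasome, was 120 and 141 CPM against 99.3 to 163 CPM. Irf8, a myeloid transcription factor, was 78.5 and 121 CPM against 48.5 to 132 CPM. Between degrees, Gbp5, a guanylate-binding protein, was called for severe against mild (edgeR adjusted p = 0.0462), beside 2.13% of all genes. It was 25.9 and 54.0 CPM in severe and 4.53 and 5.67 CPM in mild cord. Within blood-derived-type cells Gbp5, Irf1 and Socs1 were called higher for severe against mild, and Irf1 for severe against moderate. These contrasts called 3.98% and 3.47% of all genes there.

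**Figure D4:**
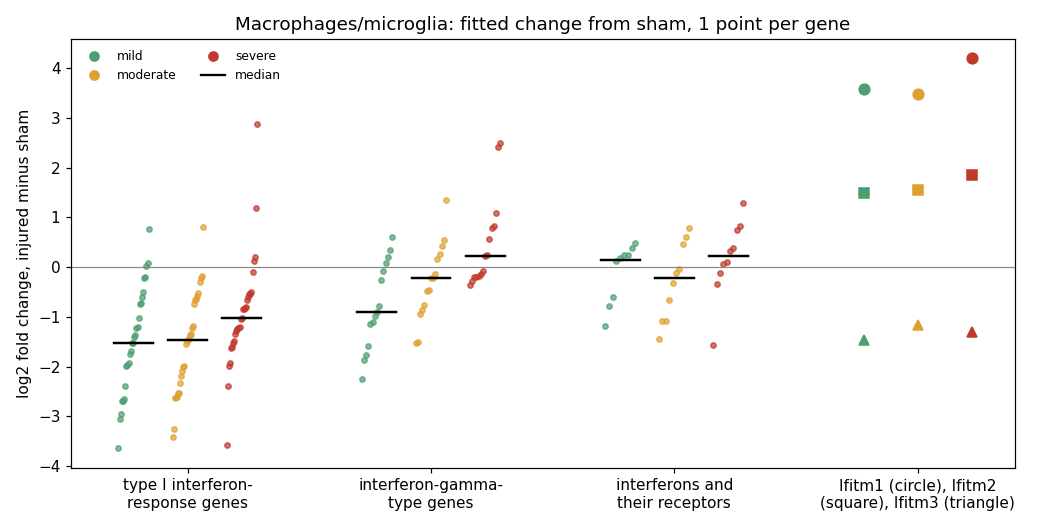
Fitted log2 fold change of each injured group against sham in macrophages/microglia (vertical), with 1 small point per gene for 3 interferon lists, a bar at each list's median, and the 3 members as large symbols, coloured by injury group. Genes with 0 UMIs in a group are not drawn but count in the medians, which are -1.52, -1.46 and -1.02 for type I interferon-response genes while Ifitm1 stands at 3.59, 3.48 and 4.20.

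In macrophages/microglia the interferon genes of the list were at low levels. Of 12 interferon and receptor genes 10 were tested in macrophages/microglia, and Ifng and Ifna4 were too low to test. Ifnb1 was listed at 1.74 CPM or below in every library. The receptor chain Ifngr1 was 421 and 615 CPM in the sham libraries and 269 to 560 CPM in the injured ones, and Ifngr2 was 163 and 280 CPM against 97.2 to 187 CPM. The kinase Jak1 was 147 and 87.5 CPM against 61.0 to 126 CPM. In severe injury 1 of the 10 genes was called higher than in sham, beside 8.11% of all genes called in that contrast. It was Ifnar2, a chain of the type I receptor, and none was called between degrees in the whole gate. Within blood-derived-type cells Ifnb1 and Jak2 were called higher for severe against mild, beside 3.98% of all genes. Ifnb1 had 0 UMIs in the mild libraries.

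Of 10 genes whose proteins modify or bind Ifitm proteins, Zdhhc20, a palmitoyltransferase, was called lower than in sham in mild and moderate injury. These contrasts called 5.82% and 2.35% of all genes. None of the 10 was called in severe injury or between degrees. The medians against sham were -0.28, -0.27 and -0.41. The most abundant were Cd81, a tetraspanin, at 596 and 976 CPM in sham and 448 to 754 CPM in injured libraries, Vapa at 344 and 265 CPM against 250 to 407 CPM, and the ATPase Vcp at 233 and 182 CPM against 153 to 344 CPM.

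Among the other family members, Ifitm6 was nearly confined to the sham replicate 1 library. It gave 1852 UMIs in all, of which 1768 were in the neutrophils of that library (130 CPM) and 11 in the other 7 libraries together. Ifitm10 gave 452 UMIs, with 8.26 ± 5.46 CPM (n = 8) in oligodendrocyte precursors. Ifitm5 gave 12 UMIs and Ifitm7 10 UMIs, against 738033 for Ifitm1, 304512 for Ifitm2 and 98763 for Ifitm3. Of the more distant relatives, Prrt2 gave 259, Syndig1 279, Trarg1 39 and Tmem233 0 UMIs.

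Across 64 sums of a type in a library, from 13 types, the gene most like Ifitm1 among 7677 genes was Ifitm2 (Pearson's r = 0.85 of log2(CPM + 1)). Next came Cyba, a subunit of the phagocyte oxidase (0.83), the interferon-gamma receptor chain Ifngr1 (0.82), the kinase Ripk3 (0.82) and Hpcal1 (0.81). Ifitm2 was most like Ifitm1, then Anxa1 (0.81), Spint2 (0.81), Fxyd5 (0.81) and Crip1 (0.76). Ifitm3 was most like Serpinh1, a collagen chaperone (0.91), Sparcl1 (0.89), Grb10 (0.89), Col5a2, a collagen chain (0.88), and Ccn2 (0.87), and its r with Ifitm1 was 0.19. The sums share libraries and types, and these values are descriptions over them.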

How the data were processed

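The authors deposited raw UMI counts per gene and cell, made with Cell Ranger and build Rnor_6.0 per the labels, from 3′ libraries; Seurat is also named. The members and lists were chosen with earlier results of these data known.

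Cells with over 10% mitochondrial UMIs, the 7.7% with the highest doublet score (Scrublet in scanpy 1.11.5) and cells beyond the mean ± 2 SD of UMIs or genes per library were removed. Types were gated per cell. Counts were summed per type and library and tested between injury degrees with edgeR 4.0.16 (quasi-likelihood, TMM, filterByExpr, all 4 groups), with Benjamini-Hochberg adjustment. Cell types were compared by exact sign-flip tests (scipy 1.17.1). Alternatives included DESeq2 1.42.0, a replicate block, other cell filters, types from 19 clusters, and leaving out each library. Stricter sub-gates, and settings beyond DESeq2 and the block for other types, were added after seeing the data. Named are the members, their 5 most similar genes, and per list the 3 most abundant genes and those called between degrees. Other named genes were chosen after their values were seen. The tests were checked on simulated data.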

Additional observations from a re-analysis of the deposited data

Results flagged for a closer look

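Ifitm1 and Ifitm2 were each higher after injury in some cell types and lower in others, with every injured library on one side of the sham values. In macrophages/microglia and T cells/NK cells both genes were higher, and in fibroblasts both were lower. The contrast with sham chose the members, so this is a description, and the share of all genes with such a pattern is not given. In oligodendrocytes and their precursors both genes overlapped between sham and injured libraries. The difference between the changes of 2 types was not tested, and it rests on sham replicate 1 alone wherever fibroblasts, neutrophils or T cells/NK cells enter. Changes are differences of log2(mean CPM + 1) between injured and sham libraries. For Ifitm1 the change was 3.57 in macrophages/microglia, 1.87 in T cells/NK cells and -1.04 in fibroblasts, so the first 2 types stood 4.61 and 2.91 above fibroblasts. For Ifitm2 it was 1.41 in macrophages/microglia, 1.36 in T cells/NK cells, -0.68 in neutrophils and -1.17 in fibroblasts. Macrophages/microglia thus stood 2.09 above neutrophils and 2.58 above fibroblasts, and T cells/NK cells 2.04 and 2.53 above them. In neutrophils the separation was narrow, with Ifitm2 at 419 CPM in sham replicate 1 and 124 to 407 CPM after injury. Sham replicate 1 also gave 98.3% of the 4838 cells of the cluster named neutrophils. Whether the neutrophils of sham and injured libraries were alike was not tested.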

How the results depend on the processing

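Ifitm1 and Ifitm2 were above sham in macrophages/microglia in 102 of 102 alternative values. The contrast with sham chose the members, and the alternatives used the same libraries again. The count is therefore a description and gives no independent support. Leaving out a library gave 3.38 to 3.83, 3.29 to 3.72 and 3.90 to 4.47 for Ifitm1 in mild, moderate and severe injury, and types from clusters gave 3.36, 3.35 and 3.95. With library-size scaling severe injury gave 3.71 for Ifitm1 and 1.34 for Ifitm2. Ifitm3 reversed without sham replicate 1, to 0.059, 0.33 and 0.23, and was lowest without sham replicate 2, at -2.18, -1.90 and -2.01. The cause of these shifts was not tested.

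Between cell types, 26 comparisons passed, against 13 with types from clusters, 0 with at least 100 cells and 0 to 25 without 1 library. With 6 libraries the smallest adjusted p exceeds the threshold, so these counts say nothing of stability. In Ifitm1, small differences reversed with types from clusters: macrophages/microglia less fibroblasts -0.0046, less neutrophils -0.85, and neutrophils less T cells/NK cells 0.52. Macrophages/microglia less neutrophils was -0.10, -0.04 and -0.14 without moderate replicate 1, severe replicate 1 or severe replicate 2 and at most 0.58, without sham replicate 1. Macrophages/microglia less T cells/NK cells ran from -0.30 to 0.095, the latter without sham replicate 1. The sub-gate difference kept its sign in every alternative, with Ifitm3 at -0.43 with types from clusters (adjusted p = 0.0703). With stricter sub-gates and 2 libraries the values were -6.97, -3.72 and -1.68 for Ifitm1, Ifitm2 and Ifitm3. Leaving out a library gave -4.94 to -4.23, -2.12 to -1.78 and -0.97 to -0.76.

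Shares of cells with a UMI depend on depth. Without thinning, macrophages/microglia had 70.5%, 78.1% and 7.51% for Ifitm1, Ifitm2 and Ifitm3, and fibroblasts 89.1%, 96.6% and 97.3%. At 500 UMIs Ifitm2 had 23.1% in macrophages/microglia, and fibroblasts 33.0%, 37.4% and 64.2%.

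No alternative called a member between degrees in macrophages/microglia. The genes called there for moderate against mild, severe against moderate and severe against mild were 0, 198 and 292. They were 242, 1311 and 1183 with DESeq2, 490, 1612 and 1572 without a filter on low counts, and 24, 314 and 907 with only the 2 groups. Library-size scaling gave 1300 and 645 for the contrasts with severe injury, of which 101 and 137 were higher in severe cord, against 89 and 182 with TMM. Leaving out a library gave 0 to 14, 40 to 1016 and 37 to 1022, with the highest counts without sham replicate 1 or sham replicate 2.

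With the replicate block the 3 counts were 2, 137 and 177. In macrophages/microglia the deviations of same-numbered libraries correlated at -0.26 to 0.31 between groups, without a common sign. Whether libraries with the same number share a batch was not tested. In the other types 1 member call was made, against 2 with DESeq2, 0 with the replicate block, 2 with library-size scaling, 9 without a filter, 3 with only the 2 groups and 0 to 3 without 1 library. That call, Ifitm2 in fibroblasts, had 0.98 with the replicate block, 0.55 with library-size scaling, 0.97 with only the 2 groups, 0.96 with types from clusters and 0.81 to 1.17 without 1 library, and lost its call in each except without sham replicate 1. The block changed no other call of a member. With 2 libraries per group the spread between libraries limits what can be called.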
